A study of Homo sapiens with 9 samples.

Results

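The keratin genes of the human genome were examined in polyadenylated RNA from Kyse150 and TE11, both esophageal squamous carcinoma lines. Members were all protein-coding genes listed in both count tables whose symbol is KRT followed by a number and, in some, a letter; genes of keratin-associated proteins (KRTAP) and keratinocyte-associated proteins (KRTCAP) were left out. This gave 55 keratins of 19238 protein-coding genes in both tables, 29 of type I and 26 of type II. By role they comprised 3 basal, 12 suprabasal, 6 simple epithelial, 5 stress, 17 hair and nail and 9 inner root sheath or companion layer keratins, and 3 others. The 9 libraries form 4 groups: Kyse150 with a control shRNA (n = 2), Kyse150 with an shRNA against KDM2A (n = 2), TE11 with a control shRNA (n = 3) and TE11 labelled as carrying the KDM2A shRNA (n = 2). KDM2A is a histone demethylase of lysine 36 of histone H3 that binds unmethylated CpG through a zinc finger. A lentivirus carried the shRNA, no second shRNA is named, and each line stands for 1 tumour.

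Keratins are the intermediate filament proteins of epithelia. A filament is built from heterodimers of 1 acidic type I chain and 1 basic type II chain, and the chains are made in characteristic pairs. In stratified squamous epithelium such as that of the esophagus, KRT5 pairs with KRT14 in the basal layer, with KRT15 as a further basal type I chain, and KRT4 pairs with KRT13 above it. KRT8 and KRT18 are the pair of simple epithelia, KRT6A, KRT6B, KRT16 and KRT17 appear in injured or hyperproliferative epidermis, and the hair keratins form the cortex and cuticle of the hair shaft. Nearly all type I genes lie in a cluster on chromosome 17 and all type II genes, with the type I gene KRT18, in a cluster on chromosome 12.

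The 250 bases before a RefSeq start of a gene are shown for some keratins because KDM2A binds CpG. RefSeq windows (GRCh38.p14) matched 34 of the 55 keratins in 38 windows. Those windows held a median of 2 CpG (0 to 7), against 11 over 35116 windows of all genes. The hexamer TATAAA, on either strand, was present in 55.3% of keratin windows and in 10.7% of all windows. The AP-1 motif TGANTCA, searched on both strands, was in 0 of the keratin windows and in 6.57% of all windows. The windows of 3 detected keratins of different roles are given with each CpG in capitals: KRT5 (chr12:52520395-52520644, reverse strand, 6 CpG), KRT4 (chr12:52814117-52814366, reverse strand, 3 CpG) and KRT10 (chr17:40822615-40822864, reverse strand, 0 CpG).
KRT5: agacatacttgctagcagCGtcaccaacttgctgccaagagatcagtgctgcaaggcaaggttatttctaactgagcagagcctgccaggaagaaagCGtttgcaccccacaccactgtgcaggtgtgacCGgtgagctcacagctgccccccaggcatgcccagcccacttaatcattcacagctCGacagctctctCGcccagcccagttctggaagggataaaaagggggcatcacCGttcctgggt
KRT4: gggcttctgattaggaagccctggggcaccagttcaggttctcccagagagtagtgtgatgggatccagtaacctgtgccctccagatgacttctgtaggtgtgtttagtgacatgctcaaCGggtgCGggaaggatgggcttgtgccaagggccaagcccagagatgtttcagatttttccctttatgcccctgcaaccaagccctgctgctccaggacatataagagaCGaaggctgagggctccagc
KRT10: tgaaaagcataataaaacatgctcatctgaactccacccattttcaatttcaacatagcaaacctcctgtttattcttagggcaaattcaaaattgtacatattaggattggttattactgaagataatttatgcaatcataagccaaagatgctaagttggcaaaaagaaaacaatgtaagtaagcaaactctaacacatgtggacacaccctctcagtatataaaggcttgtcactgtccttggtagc
These keratin windows held fewer CpG than the median window of all genes, and whether KDM2A sits at any of them was not measured here. Of the 19 keratins detected in at least 1 group, KRT4, KRT5, KRT8, KRT10 and KRT75 had a window. The KRT8 window (chr12:52926470-52926719, 1 CpG) lies well inside the GENCODE span of the gene (52897187 to 52949954, reverse strand). It is therefore not the sequence before the outermost start of KRT8. The KRT4 and KRT5 windows also lie inside their GENCODE spans, near the start. KRT6A, KRT6B, KRT7, KRT13, KRT14, KRT15, KRT16, KRT17, KRT18, KRT19, KRT23, KRT80, KRT81 and KRT86 had no window, so the CpG and motif values describe few of the keratins whose levels changed.

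Kyse150 libraries held 6052883 to 7167055 gene counts, TE11 libraries 8457767 to 12073098. Levels are given as CPM (counts over TMM-scaled library size, set within each line), and a fold change comes from edgeR's quasi-likelihood fit across all tested genes. KDM2A was checked first. It fell in Kyse150 from 173 ± 1.88 to 106 ± 1.89 CPM (SD, n = 2 each; log2 fold change -0.71, edgeR adjusted p = 3.87e-09), but stood at 119 ± 2.06 CPM in the TE11 controls (n = 3) and 133 ± 9.44 in the libraries labelled TE11 knockdown (n = 2; log2 fold change 0.16, edgeR adjusted p = 0.0335). The target gene thus goes against the TE11 label, and every TE11 direction below is between libraries as labelled. Across 11793 coding genes the libraries labelled TE11 knockdown correlated with the Kyse150 controls at r = 0.915 to 0.921 and with the TE11 controls at 0.771 to 0.773, as a description over genes that share their libraries. All 12 squamous marker genes had counts in every group, with summed levels of 825 to 842 CPM in Kyse150 controls, 908 to 923 in knockdowns, 1554 to 1624 in TE11 controls and 827 to 828 in the libraries labelled TE11 knockdown. The pan-leukocyte gene PTPRC was at 0 in all 9 libraries, and the 10 fibroblast markers summed to at most 30.4 CPM, in the TE11 controls.

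Expressed keratins were a minority in both lines. A keratin was called detected in a group when every library of it reached 1 CPM. By that rule 12 of 55 were detected in Kyse150 controls, 13 in Kyse150 knockdowns, 17 in TE11 controls and 13 in the libraries labelled TE11 knockdown. The same 11 were detected in all 4 groups: the basal KRT5, KRT14 and KRT15, the suprabasal KRT10, the simple KRT7, KRT8 and KRT18, the stress keratins KRT6A, KRT16 and KRT17, and KRT80, a type II keratin of many epithelia. TE11 controls alone had KRT4, KRT19, KRT23, KRT6B and KRT75. KRT13 was detected in both TE11 groups, KRT81 in all but the TE11 controls and KRT86 in the Kyse150 knockdowns. At the other end, 9 hair and root sheath keratins (KRT25, KRT26, KRT27, KRT28, KRT35, KRT36, KRT39, KRT72 and KRT73) had 0 counts in all 9 libraries. Keratins at 0 counts numbered 35, 32, 11 and 34 in the 4 groups in the order above, and TE11 controls were also the most deeply sequenced.

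**Figure D1:**
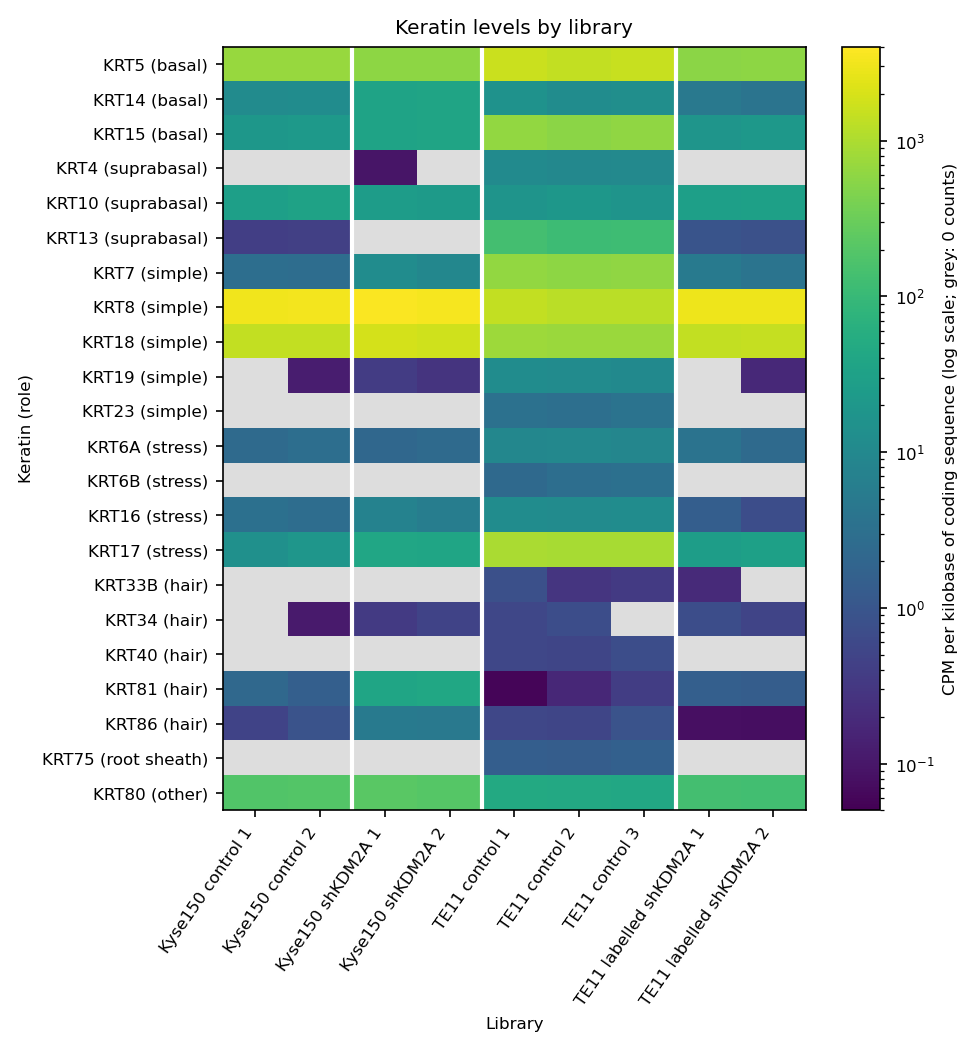
Level of each keratin with at least 10 counts in 1 library (rows, with its role) in the 9 libraries (columns), as CPM per kilobase of coding sequence on a log colour scale, with grey for 0 counts. The libraries labelled TE11 knockdown lack KRT4, KRT23, KRT6B, KRT75 and, at few counts, KRT40, which all 3 TE11 controls hold.

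Keratins as a family took a share of all gene counts below 1% in every library: 0.795 ± 0.0038% in Kyse150 controls (SD, n = 2), 0.927 ± 0.0365% in knockdowns (n = 2), 0.869 ± 0.048% in TE11 controls (n = 3) and 0.765 ± 0.013% in the libraries labelled TE11 knockdown (n = 2). What made up that share differed. Per kilobase of coding sequence, KRT8 supplied 57.3 ± 0.0164% of the summed keratin level in Kyse150 controls and KRT18 25.2 ± 0.189%, so the simple pair dominated a squamous line. In TE11 controls KRT5 led with 25.4 ± 0.505%, followed by KRT8 with 21.9 ± 0.46%, KRT17 with 15.5 ± 0.359%, KRT18 with 12.4 ± 0.251%, KRT7 with 10.4 ± 0.282% and KRT15 with 10.1 ± 0.142%. The libraries labelled TE11 knockdown were made up differently from those controls, with 57.4 ± 0.183% KRT8, 27.5 ± 0.236% KRT18 and 10.8 ± 0.0889% KRT5. Those 3 shares lie closer to the Kyse150 controls, where KRT5 held 12.4 ± 0.0617%, than to any TE11 control library. All shares here, and levels per kilobase below, use coding length, which was chosen after seeing the data. KRT8 has 6881 annotated exon bases and 1449 coding bases, and KRT18 has 3218 and 1290. The size and order of the shares therefore depend on the length, and shares over exon lengths were not computed.

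**Figure D2:**
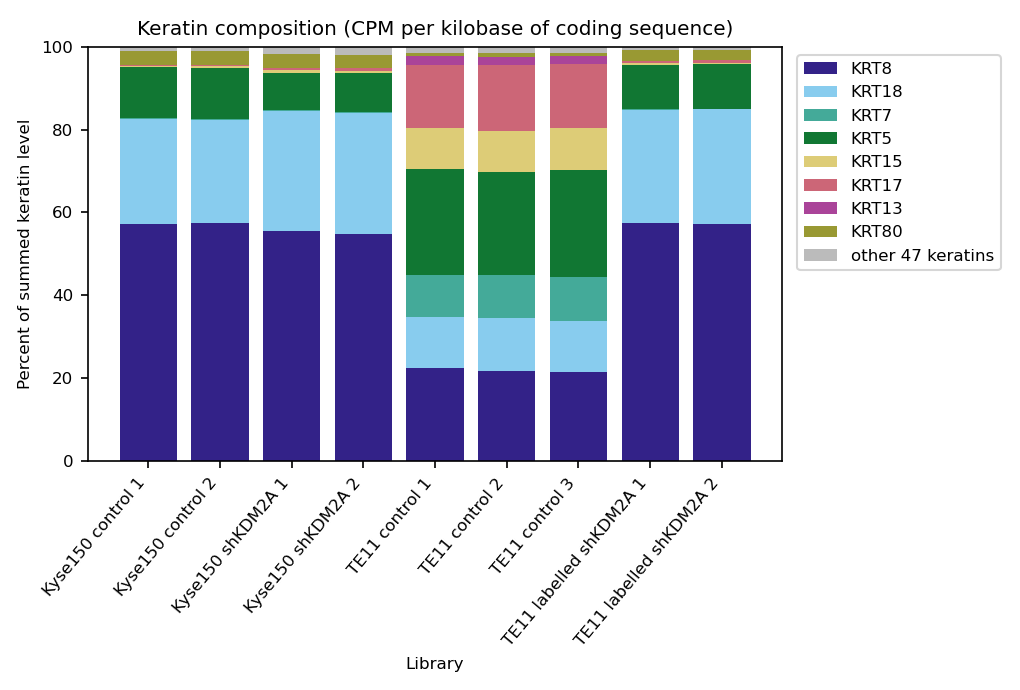
Stacked bars give each library's summed keratin level (CPM per kilobase of coding sequence) split by gene, in percent. KRT8 and KRT18 fill most of every bar except the 3 TE11 controls, where KRT5, KRT17, KRT7 and KRT15 are wide.

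Since a filament needs a chain of each type, the ratio of summed type I to type II level was computed. Over annotated exon lengths it was 0.598 ± 0.00196 in Kyse150 controls, 0.747 ± 0.00562 in knockdowns, 0.781 ± 0.0178 in TE11 controls and 0.681 ± 0.00855 in the libraries labelled TE11 knockdown. It depended on the length used: with coding lengths, an alternative chosen after seeing the data, the ratios were 0.365, 0.456, 0.696 and 0.410. Type II message exceeded type I message in every group by either length. The ratio was higher in both Kyse150 knockdown libraries than in both controls, and lower in both libraries labelled TE11 knockdown than in all 3 TE11 controls. An exact permutation test cannot go below p = 0.333 for 2 against 2 libraries or 0.2 for 2 against 3 (two-sided), and gave those values.

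In Kyse150, 13 keratins had enough counts to test and 42 did not. In knockdowns 10 of the 13 were higher and 2 lower (edgeR quasi-likelihood, Benjamini-Hochberg adjusted p under 0.05, 2 against 2 libraries), where 24.8% of all 14060 tested genes were higher, 23.3% lower and 48.2% called in either direction. The median keratin log2 fold change was 0.80, against 0.00 over all tested genes. Among the 10 higher, KRT86 had 5 and 9 counts in controls and passed the filter through the knockdowns only. It could come out no other way, so the count and the median lean on it in part. In TE11, 19 keratins were tested and 36 were not; of the 19, 5 were higher and 13 lower in the libraries labelled knockdown. There 35.9% of all tested genes were higher and 42.2% lower, and the median was -3.47 for the keratins against -0.09 for all genes. Among the 13 lower, KRT4, KRT23, KRT6B and KRT75 had 0 counts in the labelled libraries and KRT19 had 2. These passed the filter through the TE11 controls only and could come out no other way, so the count and the median lean on them. KRT81, among the 5 higher, passed it through the labelled libraries only and could likewise come out no other way. All 12 keratins with over 3 counts in each of the 4 groups, KRT81 among them, were called in TE11. Most TE11 genes were called, 78.1% in either direction, so a call alone sets no keratin apart there.

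**Figure D3:**
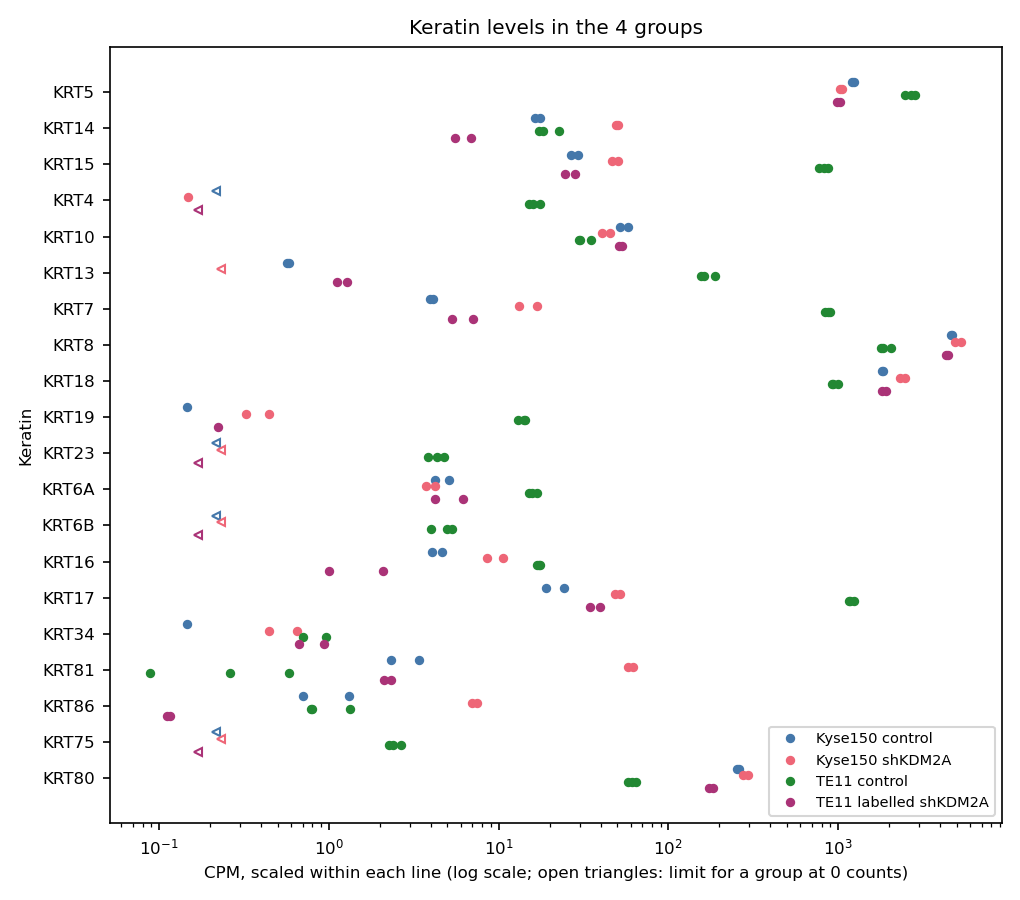
Each point is 1 library's CPM, scaled within its line, on a log axis for every keratin tested in either line; open triangles mark the limit for a group at 0 counts, and single libraries at 0 are not drawn. For KRT7, KRT15, KRT17 and KRT13 the TE11 controls lie far to the right of the other 3 groups.

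The basal keratins split in Kyse150. KRT5, the type II chain of the basal pair (ENSG00000186081, chromosome 12), had 1213 and 1242 CPM in controls and 1062 and 1021 in knockdowns. Its fall to 0.848 of control was small but passed the test (log2 fold change -0.24, SE 0.05, edgeR adjusted p = 0.000219). KRT14, its type I partner (ENSG00000186847, chromosome 17), had 16.4 and 17.5 CPM in controls and 49.5 and 50.8 in knockdowns, a rise of 2.95-fold (log2 SE 0.13, edgeR adjusted p = 7.82e-11). KRT15, which marks basal cells with progenitor properties in some epithelia, went from 26.6 and 29.3 to 46.8 and 50.6 CPM, 1.74-fold higher (log2 SE 0.12, edgeR adjusted p = 2.04e-06). The groups did not overlap for any of the 3. Per kilobase, KRT14 message amounted to 1.69% and 1.76% of KRT5 message in controls and to 5.82% and 6.22% in knockdowns. Both basal type I chains therefore stayed far below KRT5 in Kyse150 while moving against it.

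In TE11 all 3 basal keratins were lower in the libraries labelled knockdown. KRT5 had 2855, 2494 and 2703 CPM in controls and 985.2 and 1030 in the labelled libraries, 2.66-fold lower (log2 SE 0.05, edgeR adjusted p = 7.09e-26). KRT15 showed the widest basal gap, from 868.3, 768.9 and 824.6 CPM to 24.6 and 28.0, 31.2-fold lower (log2 SE 0.08, edgeR adjusted p = 9.62e-41). KRT14 was a minor message in both groups, at 22.9, 17.4 and 18.4 CPM in controls and 6.87 and 5.56 in the labelled libraries, 3.14-fold lower (log2 SE 0.18, edgeR adjusted p = 5.04e-12). Again no ranges overlapped. KRT14 amounted to 0.85% to 1% of KRT5 per kilobase in the TE11 controls, so that the main basal type I message there was KRT15. The transcript of KRT14 is 94.7% identical to that of the pseudogene KRT16P6 over 1430 aligned bases, and 71.8% of it is covered at 95% identity or more by transcripts of 3 other genes, so its counts are uncertain. KRT16P6 had 25 to 40 counts per TE11 control, 0 in the labelled libraries and 0 or 1 in each Kyse150 library.

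Suprabasal keratins were nearly silent in Kyse150. Of the 12, KRT10, the type I chain of cornifying epidermis, was the 1 detected. It had 52.0 and 57.8 CPM in controls and 45.5 and 40.4 in knockdowns, which is 0.784 of control (log2 fold change -0.35, SE 0.11, edgeR adjusted p = 0.00726). That call was lost with DESeq2 (adjusted p = 0.0654), without control replicate 2 (edgeR adjusted p = 0.0839) and without knockdown replicate 2 (0.0757). Its usual partner KRT1 had 0 counts in all 4 Kyse150 libraries. KRT13, the type I chain of the esophageal suprabasal pair, had 4 counts in each control and 0 in each knockdown, at least 2.47-fold lower against a floor of 3 counts over the group, with too few counts for the test. Its partner KRT4 had 1 count in the 4 libraries.

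TE11 controls, in contrast, held both members of the esophageal pair. KRT13 had 189, 156 and 163 CPM in controls and 1.28 and 1.11 in the libraries labelled knockdown, 140-fold lower (log2 SE 0.32, edgeR adjusted p = 7.65e-36). KRT4 had 17.5, 15.1 and 16.0 CPM in controls and 0 counts in both labelled libraries, at least 95.03-fold lower against the floor (edgeR adjusted p = 2.84e-21). KRT10 went the other way, from 29.9, 35.1 and 30.1 to 51.1 and 53.6 CPM, 1.65-fold higher (log2 SE 0.10, edgeR adjusted p = 4.20e-09). So the mucosal and the epidermal suprabasal type I chains were opposite in these libraries. The difference between the lines in the KRT10 response was 1.10 on the log2 scale (TE11 as labelled minus Kyse150; SE 0.15, edgeR adjusted p = 1.20e-09).

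Simple epithelial keratins carried the bulk of the keratin message in Kyse150, and the 3 tested were higher in knockdowns. KRT18, the type I chain of the simple pair, had 1821 and 1832 CPM in controls and 2470 and 2330 in knockdowns, 1.31-fold higher (log2 SE 0.05, edgeR adjusted p = 1.05e-07). KRT8, its type II partner, had 4620 and 4699 CPM in controls and 5332 and 4909 in knockdowns, 1.10-fold higher (log2 SE 0.05, edgeR adjusted p = 0.0183). KRT8 no longer passed when any of 3 libraries was left out: control replicate 1 (edgeR adjusted p = 0.148), the other control (0.0737) or knockdown replicate 1 (0.324). KRT18 message was 44.3% and 43.8% of KRT8 message per kilobase in controls and 52.0% and 53.3% in knockdowns. Exons of KRT8 and KRT18 overlap by 525 bases on opposite strands, where reads cannot be assigned without strand. At 95% identity or more, transcripts of 2 other genes cover 68.3% of the KRT8 transcript. Those of 3 other genes cover 82.8% of the KRT18 transcript. Counts of both are therefore uncertain, as are the shares and ratios that rest on them.

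KRT7, the type II chain of glandular and transitional epithelia, changed far more. It had 4.11 and 3.93 CPM in Kyse150 controls and 16.8 and 13.3 in knockdowns, 3.74-fold higher (log2 SE 0.25, edgeR adjusted p = 1.58e-07), on 56 control counts in all. The antisense gene KRT7-AS, whose exons with those of KRT87P cover 314 exon bases of KRT7, had 16 to 25 counts in controls and 50 to 56 in knockdowns. The sources used here do not give a strand setting, so reads of these genes cannot be told apart. KRT19, an acidic keratin without a tail domain, had 1 count in controls and 5 in knockdowns, and KRT20 and KRT23 were at 0 in both groups.

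In TE11 the simple keratins divided. KRT8 stood at 2047, 1781 and 1841 CPM in controls and 4312 and 4436 in the libraries labelled knockdown, 2.31-fold higher (log2 SE 0.05, edgeR adjusted p = 1.20e-24). KRT18 was at 1005, 925.7 and 927.6 CPM against 1821 and 1905, 1.96-fold higher (log2 SE 0.05, edgeR adjusted p = 6.05e-21). Both chains of the pair were higher together, with KRT18 at 55.1% to 58.4% of KRT8 per kilobase in controls and 47.4% and 48.2% in the labelled libraries. KRT7 was lower instead, at 896, 843 and 878 CPM in controls and 7.10 and 5.34 in the labelled libraries, 140-fold lower (log2 SE 0.14, edgeR adjusted p = 1.09e-43), and KRT7-AS had 3357 to 3607 counts against 35 to 49. KRT19 had 14.3, 14.1 and 12.95 CPM in controls and 2 counts in the labelled libraries together, a ratio of 121 (95% exact counting interval 33.2 to 1000). KRT23, an inducible type I keratin, had 4.34, 3.84 and 4.76 CPM in controls and 0 counts in the labelled libraries, at least 25.3-fold lower (edgeR adjusted p = 8.23e-12).

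Stress keratins of type I rose in the Kyse150 knockdowns, without their type II partner. KRT17 had 19.1 and 24.3 CPM in controls and 52.0 and 48.5 in knockdowns, 2.32-fold higher (log2 SE 0.13, edgeR adjusted p = 1.01e-08). KRT16 had 4.67 and 4.08 CPM in controls and 10.6 and 8.57 in knockdowns, 2.188-fold higher (log2 SE 0.26, edgeR adjusted p = 0.00054). KRT6A, the type II partner of KRT16, had 4.25 and 5.10 CPM in controls and 3.73 and 4.21 in knockdowns, which did not pass the test (log2 fold change -0.24, SE 0.30, edgeR adjusted p = 0.543). KRT16 message per kilobase was 131% and 95.4% of KRT6A in controls and 339% and 243% in knockdowns. KRT6A and KRT6C are 95.4% identical over 2291 bases and KRT6B and KRT6C 97.4% identical, so counts of the KRT6 genes are uncertain. KRT6B had 0 counts in all 4 Kyse150 libraries.

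All 4 tested stress keratins were lower in the libraries labelled TE11 knockdown. KRT17 was among the most abundant keratin messages of the TE11 controls, at 1238, 1163 and 1181 CPM, and stood at 34.5 and 39.8 in the labelled libraries, 32.1-fold lower (log2 SE 0.08, edgeR adjusted p = 4.78e-42). KRT16 had 17.4, 16.8 and 17.2 CPM in controls and 2.095 and 1.001 in the labelled libraries, 11.1-fold lower (log2 SE 0.30, edgeR adjusted p = 4.86e-18). Without the labelled replicate 1 its log2 fold change moved from -3.47 to -4.08. KRT6A had 15.7, 16.8 and 15.2 CPM against 6.17 and 4.23, 3.06-fold lower (log2 SE 0.19, edgeR adjusted p = 4.08e-11). KRT6B had 3.99, 4.97 and 5.35 CPM in controls and 0 counts in the labelled libraries, at least 28.0-fold lower (edgeR adjusted p = 2.45e-12). No control library overlapped a labelled library for any of them. KRT16 is 94.5% identical to the pseudogene KRT16P2 over 1425 bases and KRT17 95.2% to KRT17P1 over 1302, and KRT17P1 had 0 or 1 counts per TE11 control.

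Of the 17 hair and nail keratins 2 could be tested in Kyse150, KRT81 and KRT86, and both were higher in knockdowns. KRT81 (ENSG00000205426, chromosome 12, 52285913 to 52291534), a type II keratin of the hair cortex, had 3.40 and 2.33 CPM in controls and 58.0 and 62.1 in knockdowns. That is 20.8-fold higher (log2 fold change 4.38, SE 0.24, edgeR adjusted p = 8.77e-17), on 24 and 16 control counts and 389 and 384 knockdown counts. KRT86 (ENSG00000170442, chromosome 12, 52249300 to 52309163) had 0.708 and 1.31 CPM in controls and 7.45 and 6.95 in knockdowns, 7.06-fold higher (log2 SE 0.44, edgeR adjusted p = 5.76e-07). Both controls lay below the filter's cutoff, so KRT86 was tested through the knockdowns only and could come out no other way. KRT83, a further cortex keratin of this stretch, had 0 counts in controls and 5 and 8 in knockdowns, at least 4.68-fold higher against the floor, with too few counts for the test. The transcripts of KRT81 and KRT86 are 96.6% identical over 1325 aligned bases, and those of KRT81 and KRT83 94.1% over 1422, and how the counting divided reads between the 3 was not tested. No type I hair keratin was detected in Kyse150: KRT34 had 1 count in controls and 7 in knockdowns, and KRT33B and KRT40 had 0 in both.

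**Figure D4:**
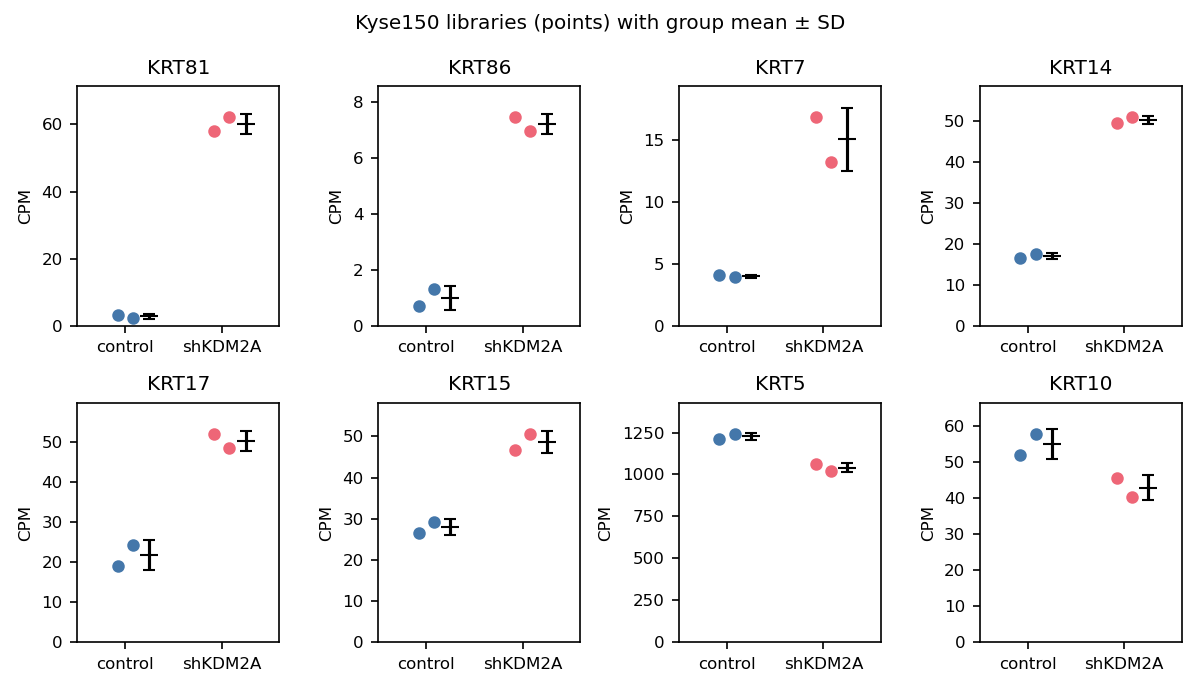
CPM of 8 keratins in the 4 Kyse150 libraries (points), with the group mean and SD beside them; each vertical axis starts at 0. The groups are apart in every panel, from 0.784 of control for KRT10 to 20.8-fold for KRT81.

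Hair keratins were scarce in TE11. KRT81 had 0.0886, 0.262 and 0.585 CPM in controls and 2.33 and 2.11 in the libraries labelled knockdown, 6.796-fold higher (log2 SE 0.60, edgeR adjusted p = 1.13e-05) on 11 control counts. All 3 controls lay below the filter's cutoff, so KRT81 was tested through the labelled libraries only and could come out no other way. The estimate leans on control replicate 3, without which the log2 fold change went from 2.76 to 3.55. KRT86 did not accompany it there, with 9, 9 and 16 counts in controls and 1 in each labelled library, too few to test. KRT34, a type I hair keratin, had 8, 11 and 0 counts in controls and 8 and 6 in the labelled libraries (log2 fold change 0.53, SE 0.68, edgeR adjusted p = 0.48), and its groups overlapped. The type I hair keratins KRT33B, with 4 to 11 counts, and KRT40, with 8 to 11 counts, were held by all 3 TE11 controls, and the labelled libraries had 2 and 0 counts of them together.

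Of the 9 inner root sheath and companion layer keratins none was detected in Kyse150, and KRT75 alone in TE11. KRT75, a companion layer keratin of type II, had 2.39, 2.27 and 2.67 CPM in the TE11 controls and 0 counts in the libraries labelled knockdown, at least 14.3-fold lower (edgeR adjusted p = 1.69e-08). KRT74 had 8 counts in each TE11 control and 0 in both labelled libraries. KRT80 came after KRT8, KRT18 and KRT5 among the keratin messages of Kyse150, with 255 and 260 CPM in controls and 296 and 276 in knockdowns. Its 1.11-fold difference (edgeR adjusted p = 0.0399) was lost under 8 of 11 alternatives, among them DESeq2 (adjusted p = 0.147) and the fits without control replicate 1 or 2 or without knockdown replicate 1 (edgeR adjusted p = 0.1 to 0.365). In TE11 it was at 64.7, 61.4 and 58.2 CPM in controls and 183 and 174 in the labelled libraries, 2.91-fold higher (log2 SE 0.07, edgeR adjusted p = 9.98e-24).

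The changes in Kyse150 were then set out along the chromosomes. On chromosome 17 the last 3 of 28 keratins in order, KRT14, KRT16 and KRT17, all rose, as did KRT15 a few places before them, and KRT10, at place 7, fell. On chromosome 12 places 2, 3 and 4 of 27 belong to KRT7, KRT86 and KRT81, which all rose, and place 5 to KRT83, with 0 control counts. Of these, KRT86 was tested through the knockdowns only. KRT80, at place 1, and KRT8 and KRT18, at places 26 and 27, passed with smaller rises of 0.15, 0.14 and 0.39 on the log2 scale. These genes share annotated space: KRT81 lies within the span of KRT86 on the opposite strand, and the end of KRT7 overlaps that span. KRT5 and KRT6A, in the middle of the same cluster, had log2 fold changes of -0.24. In TE11 the order gave another picture, since KRT7 was lower and KRT81 higher in the libraries labelled knockdown, and KRT13, KRT15, KRT19, KRT14, KRT16 and KRT17 were all lower. Neighbouring genes are not independent, and no test of position was made.

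**Figure D5:**
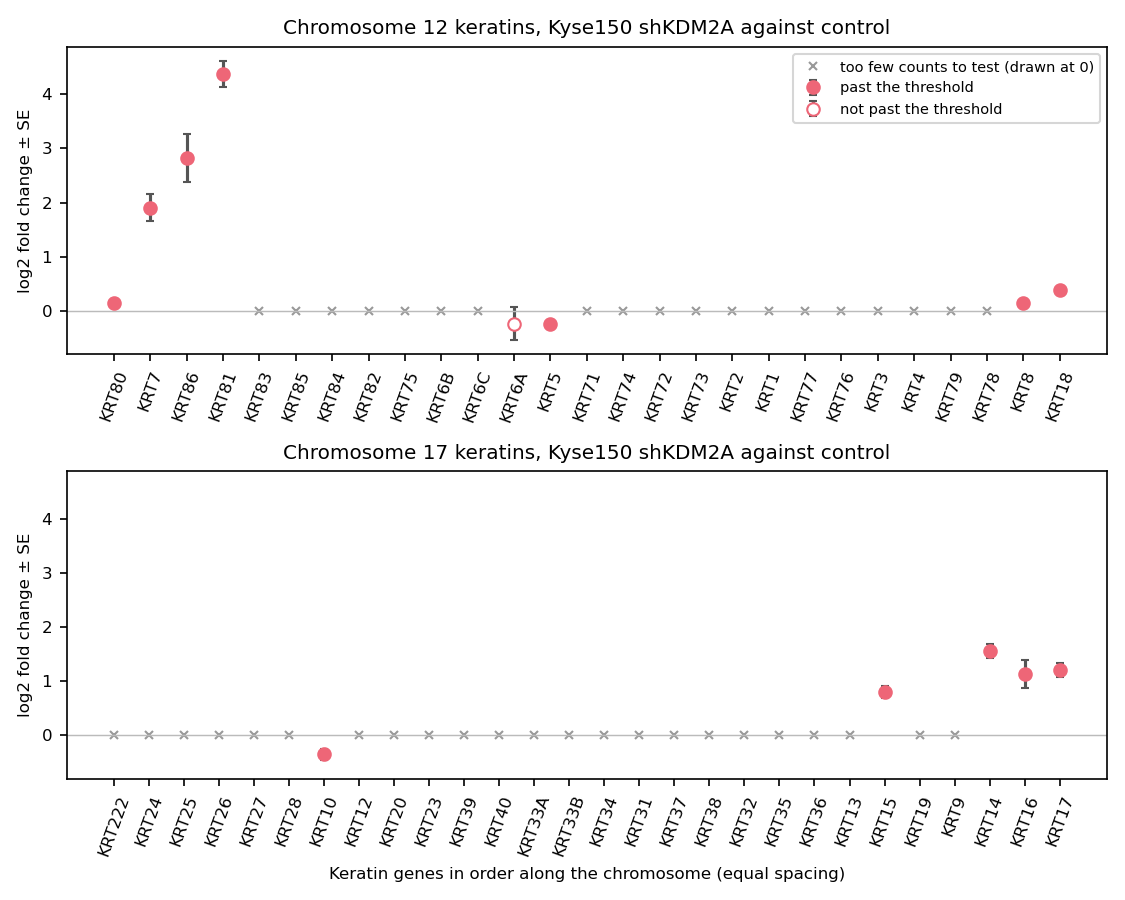
Log2 fold change with its SE in Kyse150 knockdowns against controls for each keratin in gene order along chromosome 12 and chromosome 17, equally spaced; filled points passed the test and crosses had too few counts to test. The points that rose are KRT80, KRT7, KRT86, KRT81, KRT8 and KRT18 on chromosome 12 and KRT15, KRT14, KRT16 and KRT17 on chromosome 17.

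The responses of the lines were compared in 1 fit of all 9 libraries. Of 19 keratins tested, the response of TE11 as labelled exceeded that of Kyse150 in 4 and was below it in 11, where 33.8% and 33.1% of 15895 genes were called. The values for KRT4, KRT19 and KRT86, among the 11, rest on a group with 3 counts or fewer. Of the 19, 12 keratins had over 3 counts in each of the 4 groups, and all 12 passed the test, with 66.9% of all genes called in either direction. Among those 12, 6 that rose in Kyse150 had a smaller or opposite change in TE11 as labelled: the difference was -9.02 for KRT7, -6.19 for KRT17, -5.74 for KRT15, -4.57 for KRT16 (-5.18 without the labelled replicate 1), -3.19 for KRT14 and -1.60 for KRT81 on the log2 scale. KRT81 rose in Kyse150 and was higher in TE11 as labelled, and its difference was lost without Kyse150 control replicate 2 (edgeR adjusted p = 0.0672) and without TE11 control replicate 3 (-0.82, edgeR adjusted p = 0.47), as it was with the replicate block (-0.80, edgeR adjusted p = 0.505). In the fit of TE11 alone KRT81 was tested through the labelled libraries only. KRT8, KRT18 and KRT80 had larger rises in TE11 as labelled, by 1.10, 0.60 and 1.42. Line, count table and annotation change together in this contrast, so they cannot be told apart.

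Because the labelled TE11 libraries resembled Kyse150 controls, the keratin levels of the groups were set against those controls in the same fit. The TE11 controls were higher than the Kyse150 controls for 12 keratins (43.7% of all genes were higher) and lower for 5 (36% of all genes), with KRT14 and KRT86 not passing. In either direction 79.7% of all genes were called. The keratins that were higher include KRT4, KRT23, KRT6B and KRT75, at 0 counts in Kyse150 controls, KRT19, at 1, and KRT13, at 8. These passed the filter through the TE11 controls only and could come out no other way. KRT7 was 228-fold, KRT17 58.0-fold and KRT15 31.0-fold higher, and KRT8 stood at 0.428 and KRT18 at 0.551 of the Kyse150 control level. The libraries labelled TE11 knockdown differed from the Kyse150 controls for 8 of 19 keratins, where 53.6% of all genes were called. Of those 19, KRT4, KRT23, KRT6B and KRT75 had 0 counts in both groups, and KRT19 had 2 against 1. These passed the filter through the TE11 controls only, so no call could be expected of them here. KRT13, at 21 counts against 8, also needed the TE11 controls to pass the filter, and was not called. Of the 12 keratins with over 3 counts in each of the 4 groups, 7 were called. In the labelled libraries KRT18, KRT17 and KRT7 were higher (29.1% of all genes were), at 1.09-fold, 1.83-fold and 1.64-fold, and KRT80, KRT86, KRT5, KRT16 and KRT14 lower (24.5% of all genes). KRT5 stood at 0.876 of the Kyse150 control level, and KRT86 had 2 counts against 14, a scaled ratio of 0.113 (95% exact counting interval 0.0125 to 0.493). The KRT18 call was lost under 9 alternatives, and without the labelled TE11 replicate 1 so was that of KRT7 (edgeR adjusted p = 0.139). The KRT5 call was lost without the same library (edgeR adjusted p = 0.0766) and with the replicate block (0.0901), and that of KRT86 without Kyse150 control replicate 2 (0.0890). In level the labelled libraries therefore lay nearer to the Kyse150 controls than to TE11 controls for KRT7, KRT15, KRT17, KRT13, KRT4, KRT8 and KRT18. All of these comparisons share the Kyse150 control or labelled libraries, and the 3 sets of values are given side by side for that reason.

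A list of 17 genes held linkers and partners of keratin filaments (desmosomal plakins, plakophilins, filaggrin and others) and KRTCAP3, which encodes a keratinocyte-associated membrane protein and is no filament linker. In Kyse150, 15 were tested, of which 3 were higher and 7 lower in knockdowns (median log2 fold change -0.12), where 24.8% of all tested genes were higher and 23.3% lower (48.2% either way). PLEC, which encodes plectin, a linker of filaments to hemidesmosomes, went from 2852 ± 62.6 to 1156 ± 85.0 CPM (SD, n = 2 each), 0.405 of control (edgeR adjusted p = 3.31e-17). FLG, which encodes the keratin-aggregating protein filaggrin, stood at 0.202 and PKP3, a desmosomal plakophilin, at 0.647 of control, and PPL, which encodes periplakin, rose 1.51-fold. All 17 were tested in TE11, with 6 higher and 6 lower in the libraries labelled knockdown (median -0.03), where 35.9% of all tested genes were higher and 42.2% lower (78.1% either way). PLEC was 3.43-fold higher there, and PPL stood at 0.169 and EPPK1, which encodes epiplakin, at 0.113 of control, so that PLEC and PPL had opposite directions in the lines as labelled. KRTCAP3 had 1307 counts in the TE11 controls and 2 in the labelled libraries, a scaled ratio of 0.00302 (95% exact counting interval 0.000366 to 0.0109). It passed the filter through the controls only and could come out no other way, and it is among the 6 lower.

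Of 18 other intermediate filament genes, 8 were tested in Kyse150, with 2 higher and 3 lower (median log2 fold change -0.16; 24.8% of all tested genes were higher and 23.3% lower). The 3 were the nuclear lamins, LMNB1 at 0.535, LMNA at 0.698 and LMNB2 at 0.762 of control, and SYNM, which encodes synemin, rose 1.67-fold. VIM, which encodes the mesenchymal filament protein vimentin, had 16 counts in the TE11 controls and 108 in the libraries labelled knockdown, 13.03-fold higher (edgeR adjusted p = 2.11e-12), a level of 6.16 ± 1.16 CPM (SD, n = 2). It passed the filter through the labelled libraries only and could come out no other way. Of the 18 genes 11 were tested in TE11, with 5 higher and 5 lower (median -0.02; 35.9% of all tested genes were higher and 42.2% lower). LMNB2 was 1.80-fold higher, SYNM stood at 0.149 of control, and NEFL, the light neurofilament chain, had 684 counts in controls and 0 in the labelled libraries, at least 115-fold lower. NEFL passed the filter through the controls only. The 5 higher and 5 lower thus include VIM and NEFL, whose directions the filter fixed. Among cell type markers, the 10 fibroblast genes summed to 6.37 to 6.70 CPM in Kyse150 controls and 10.998 to 11.9 in knockdowns, with 1 of 10 at 1 CPM or more and COL1A2, DCN and PDGFRA at 0 in both. In TE11 they summed to 27.8 to 30.4 CPM in the controls, 4 of 10 at 1 CPM or more, and 2.79 to 3.89 in the labelled libraries. Of the squamous markers, 8 were tested in Kyse150, with 4 higher and 1 lower in knockdowns, and 11 in TE11, with 2 higher and 9 lower in the labelled libraries. Over all tested genes 48.2% were called in Kyse150 and 78.1% in TE11. The 8 leukocyte markers summed to at most 5.18 CPM, the 6 endothelial to 9.27, the 8 columnar or intestinal to 16.6 and the 4 melanocyte markers to 32.3. The part of any of these marker lists in the keratin results was not tested, and in bulk RNA fewer cells of a type and less RNA per cell cannot be told apart.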

How the data were processed

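Whole-number counts of fragments per gene, deposited by the authors in 1 table per line, were used as they stand. Per the submitters' processing notes, bcl2fastq 2.19, HISAT2 2.1.0 and HTSeq 0.9.1 were used, along with DESeq2; GRCh37.p13 and GRCh38.p13 are both listed as builds, with no assignment to a table. A strand setting is not given. Identifiers were given symbols from GENCODE release 29 (GRCh38) and a table of gene names, which named 90.5% of Kyse150 rows, and coordinates and lengths from GENCODE. HTSeq's summary rows stayed out of library sizes: fragments on no gene made up 42.3% to 44.5% and those aligned to several places 2.94% to 6.78% of a column.

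Genes passing filterByExpr (minimum count 10, minimum total 15) were TMM-scaled and tested with edgeR 4.0.16 in R 4.3.3 (robust quasi-likelihood, group as the only term), in each line and in 1 fit of all 9 libraries over 52165 shared genes, with Benjamini-Hochberg adjustment over all tested genes at 0.05. Standard errors come from the fitted model. Bounds use 3 counts over the group; they and the 95% exact intervals cover counting error only. Transcripts were aligned with BLAST+ 2.17.0. Every keratin tested in a line was named, with untested ones at 10 or more counts in 1 library; ones with fewer counts (such as KRT1, KRT20, KRT74 and KRT83) were named after their values were seen. Of the 2 lists the 4 genes of smallest p per line were named. Keratins, roles and lists were chosen with earlier results of these data known.

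In data simulated from the real means and library sizes, 2-fold changes were recovered for 81% of changed genes in Kyse150, 86% in TE11 and 58% for the difference between lines. For 1.5-fold changes the values were 36%, 43% and 9%. The spread was preset, equal for every gene and not taken from the data. KRT5, KRT8, KRT10, KRT18 and KRT80 changed by less than 1.5-fold in Kyse150. Replicates differed by more than counting noise (chi-square per degree of freedom 1.62 to 4.91), so none was merged. Which step was repeated between replicates is not stated, so p-values measure the spread between libraries, which may be technical. Alternatives were DESeq2 1.42.0, other scalings and filters, the replicate block, a fit of all libraries and each library left out. The coding sequence of some keratins is not reported here.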

Additional observations from a re-analysis of the deposited data

Results flagged for a closer look

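Of the 12 keratins with more than 3 counts in each of the 4 groups, 12 responded differently in TE11 as labelled than in Kyse150, by a test of the difference itself in the fit of all 9 libraries (edgeR, adjusted p under 0.05). The log2 difference, TE11 as labelled minus Kyse150, was below 0 for KRT7 (-9.02), KRT17 (-6.19), KRT15 (-5.74), KRT16 (-4.57), KRT14 (-3.19), KRT81 (-1.60), KRT6A (-1.35) and KRT5 (-1.15). It was above 0 for KRT80 (1.42), KRT10 (1.10), KRT8 (1.10) and KRT18 (0.60). The KRT81 difference was lost without Kyse150 control replicate 2 (edgeR adjusted p = 0.0672), without TE11 control replicate 3 (-0.82, edgeR adjusted p = 0.47) and with the replicate block (-0.80, edgeR adjusted p = 0.505). Across all genes 66.9% were called in this contrast, and the labelled TE11 libraries did not have less KDM2A. Line, count table and annotation cannot be told apart in it.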

How the results depend on the processing

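Keratins lower in Kyse150 knockdowns numbered 1 in place of 2 with DESeq2, and 1 to 2 with each library left out. Keratins higher in TE11 controls than in Kyse150 controls numbered 19 in place of 12 without a filter on low counts. Those higher in the libraries labelled TE11 knockdown than in Kyse150 controls numbered 1 to 2 in place of 3 with each library left out, and 1 without the labelled TE11 replicate 1. Over protein-coding genes in both tables alone, the keratin shares were 0.849%, 0.994%, 0.991% and 0.828% for Kyse150 controls, Kyse150 knockdowns, TE11 controls and the libraries labelled TE11 knockdown. The ratio of type I to type II was 0.317, 0.399, 0.582 and 0.357 in the same order with raw counts, and 0.365, 0.456, 0.696 and 0.410 with coding lengths. KRT34 in TE11, not called, turned from 0.53 to -0.065 on the log2 scale with the replicate block.

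Same-numbered libraries did not deviate together (correlation of deviations -0.044 in Kyse150, and -0.0015 and -0.006 in TE11), so the numbers are no pairing. With the replicate block the KRT80 and KRT8 calls in Kyse150 were lost (edgeR adjusted p = 0.122 and 0.116), as were the KRT81 difference between the lines (-0.80, edgeR adjusted p = 0.505) and the KRT5 difference between labelled TE11 libraries and Kyse150 controls (-0.16, edgeR adjusted p = 0.0901). That KRT5 call was also lost without the labelled TE11 replicate 1, and the KRT86 call in the same comparison without Kyse150 control replicate 2. KRT16 in that comparison moved to -2.02 on the log2 scale without the labelled TE11 replicate 1. Low counts limit the hair, root sheath and suprabasal keratins: 42 of 55 keratins could not be tested in Kyse150 and 36 in TE11.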
